A study of Mus musculus with 4 samples.

Results

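PTBP1 crosslinking between annotated genes was examined in whole heart of wild-type (WT) C57BL/6 mice. The clusters described lie on chromosomes 1 to 19, and their midpoint falls in no protein-coding or lncRNA gene span of GRCm38 (mm10) on either strand. A dense block on chromosome 7 between Josd2 and 5430431A17Rik, with 208 clusters in replicate 1 and 203 in replicate 2, was left out. This gave 5985 intergenic clusters of 376266 in replicate 1 and 6038 of 388894 in replicate 2. On chromosomes 1 to 19 they made up 1.64% of 363911 clusters and 1.61% of 376052. The study held 2 PTBP1 immunoprecipitates and 2 size-matched inputs, each input from the lysate of its own immunoprecipitate, and all 4 samples shared the same genotype and tissue. Each sample started from about 66 mg of frozen, powdered tissue, and the window excised from the blot ran from 50 to 125 kDa. Whole heart mixes many cell types, so no cluster can be given to one of them. Whether the lysates stem from separate animals is not in the labels, so replicate spread here may be technical only. With 2 lysates no test over samples was run, and values are given for both.

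PTBP1, polypyrimidine tract binding protein 1, is a repressor of many alternative exons that binds RNA rich in pyrimidines and is mostly nuclear. In eCLIP, ultraviolet light links protein to RNA, RNase trims the RNA, and an antibody recovers the linked fragments. RNA from outside annotated genes includes transcripts that run past a gene's annotated end, primary transcripts of miRNAs, small nuclear RNAs and copies of genes kept as pseudogenes. A size-matched input shows which of these is abundant without the antibody.

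Genome sequence under the clusters was not used here, but some clusters lay on sequences held by RefSeq (GRCm38.p6). Shown first are mature miRNAs, because intergenic clusters lay on the first 3 of them and beside the hairpins of the other 2. They run 5′ to 3′, and capitals mark the seed, bases 2 to 8.
mmu-miR-27a-3p: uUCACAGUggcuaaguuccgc
mmu-miR-451a: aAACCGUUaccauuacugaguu
mmu-let-7c-5p: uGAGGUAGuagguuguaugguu
mmu-miR-99a-5p: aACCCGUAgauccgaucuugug
mmu-miR-125b-5p: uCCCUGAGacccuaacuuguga

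The 5 seeds differ from each other. let-7c-5p, miR-99a-5p and miR-125b-5p come from hairpins on the plus strand of chromosome 16, and all 3 hairpins lie inside the longest run of intergenic clusters. miR-27a-3p lies at chr8:84208727-84208747 and miR-451a at chr11:78073186-78073207. Another gene, Mir125b-1, gives the same mature miR-125b-5p, so for that mature sequence only the position tells the genes apart.

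Of the enriched clusters, 1 reached into a promoter window read here, the stretch from 250 bases before a gene's start to 50 after. It lay at chr13:58157254-58157424 on the minus strand, antisense to Idnk, a gluconokinase gene on the plus strand. RefSeq's window holds 26 of its 171 nt, chr13:58157399-58157424, printed here on the cluster's own strand with pyrimidines in capitals.
Idnk window, minus strand: CTCTTTCCTCTCCTCTCTCTTTCCTC

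Every base of it is C or T. Stretches nearly as rich in pyrimidines were also read under clusters that were not enriched: 42 nt at Tmem132b, 97.6% pyrimidine, lay under a replicate 1 cluster with a log2 fold of −0.38, and 21 nt at Irx3, 85.7% pyrimidine, under a replicate 2 cluster at −0.97. The motif CTCTCT, searched on the strand opposite to the gene in the same 26 nt of 32851 promoter windows, was present in 433 (1.32%), and 36 (0.110%) were pyrimidine throughout. The cluster had a log2 fold of 3.27 and a −log10 p of 5.15 in replicate 1, while the overlapping cluster of replicate 2 had 1.94 and 1.94 and was not enriched. Besides it, 30 of the 31 intergenic clusters that reached a promoter window read here in replicate 1 and all 24 in replicate 2 were not enriched. These counts cover only genes with a window in RefSeq's promoter table, and not every gene had one. Gm32718 on chromosome 19, whose span began 4 nt from a reproducible region, gave no window.

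Intergenic clusters were fewer and weaker than those in genes. There were 4.66 per Mb in replicate 1 and 4.70 in replicate 2 over the 1285 Mb between gene spans, against 310 and 320 per Mb within the spans. The sources used here do not say whether the authors' caller searched all of the genome, so these densities describe called clusters only. The median log2 fold, immunoprecipitate over input in the authors' deposited tables, was 0.36 in both replicates, against 0.62 in both for clusters in gene spans. Clusters were called enriched when log2 fold and −log10 p each reached 3. They numbered 272 in replicate 1, or 4.54% (95% Wilson interval 4.05 to 5.10). In replicate 2 they numbered 191, or 3.16% (2.75 to 3.64). Over all clusters of chromosomes 1 to 19 the enriched share was 6.31% in replicate 1 and 4.71% in replicate 2, so the intergenic share lay below the background in both. These intervals treat clusters as independent and cover counting error only.

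Most intergenic clusters carried folds that few different values could describe. The 10 commonest fold values covered 54.1% of the clusters in replicate 1 and 53.8% in replicate 2, and read numbers per cluster were not used here. Enriched clusters were longer, with a median of 135 nt and 137 nt against 70 nt and 68 nt for the others. At the edge of the gene spans, clusters with a midpoint up to 100 nt outside were few. Of these, 7 of 112 (6.25%) were enriched in replicate 1 and 5 of 94 (5.32%) in replicate 2. Up to 100 nt inside, 20 of 1147 (1.74%) and 11 of 1157 (0.951%) were enriched. Over all autosomal clusters the enriched share was 6.31% and 4.71%. The outside edge was thus near that background, and the inside edge lay below it in both replicates.

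The replicates ranked the same intergenic sites alike. A replicate 2 cluster overlapped 53.7% of the replicate 1 clusters, and all 272 enriched ones among them. Over 3211 pairs, each replicate 1 cluster with the intergenic replicate 2 cluster sharing most nucleotides, Pearson's r was 0.839 and Spearman's rho 0.774, as a description of clusters that share libraries and sites. The median difference was 0.12 and its SD 0.95 on the log2 scale. By comparison, r was 0.787 over 199931 pairs in gene spans. No cluster had the same coordinates and fold in both tables, and 7 had the same coordinates.

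**Figure D1:**
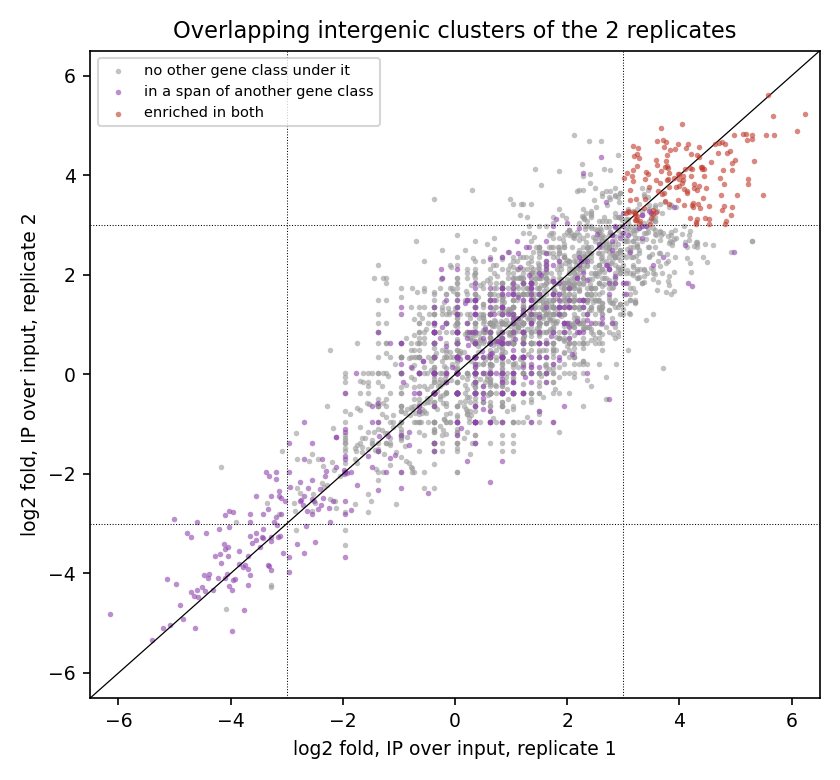
Log2 fold of each replicate 1 intergenic cluster (horizontal axis) against that of the replicate 2 cluster sharing most nucleotides (vertical axis), for 3211 pairs, with dotted lines at the fold of 3 and −3 and the diagonal drawn. Pairs enriched in both replicates are red, other pairs in a span of another gene class purple and the rest grey; purple points fill the lower left corner.

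Reproducible clusters of replicate 1 are those enriched ones that share at least 1 nt with an enriched intergenic replicate 2 cluster of their strand. There were 162 of these, 59.6% of the enriched clusters (53.6 to 65.2), and 155 counted from replicate 2, 81.2% of its enriched clusters (75.0 to 86.1). Over all clusters of chromosomes 1 to 19, 3.97% in replicate 1 and 3.71% in replicate 2 were reproducible, and the 162 of 5985 and 155 of 6038 intergenic ones were smaller shares. Among enriched clusters in gene spans, 62.6% and 78.5% were reproducible. The 110 enriched replicate 1 clusters that were not reproducible were each overlapped by a replicate 2 cluster with a positive fold, of median 2.59. Of those 110 partners, 17 reached the fold of 3 and 54 the −log10 p of 3.

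Joined when at most 100 nt apart, the reproducible clusters formed 107 regions on all 19 chromosomes, 54 on the plus strand and 53 on the minus strand. Their median length was 205 nt, from 83 to 798, and 59 held a single cluster of each replicate. The lower of the 2 highest folds had a median of 3.79 and ranged from 3.01 to 5.58, and reached 4 in 40 regions. In 97 regions the highest clusters of the 2 replicates overlapped, which the definition fixes for the 59 with a single cluster of each. Chromosome 1 held 17 regions and chromosome 7 held 12, while 5 chromosomes held 2 each.

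The region with the highest lower fold lay at chr17:28511433-28511671 on the minus strand, between Fkbp5, a co-chaperone of the glucocorticoid receptor, and the lncRNA gene E230001N04Rik. Its highest clusters had log2 folds of 5.58 and 5.61 in replicates 1 and 2, the closest pair of values among the leading regions. Fkbp5 lies on the same strand and starts 25335 nt to the left, so the region is upstream of it. E230001N04Rik is on the other strand and starts 11053 nt to the right.

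The highest single fold, 6.23, belonged to replicate 1 at chr6:99618616-99618882, where replicate 2 reached 5.23. This region lay 3083 nt past the end of Eif4e3, a cap-binding protein gene on the same strand, and 95917 nt from Foxp1, a transcription factor gene, on its other side. The region at chr1:21290716-21291147 reached 5.67 and 5.19 and fell in Gm4956, a transcribed pseudogene, which held 9 clusters in replicate 1 and 8 in replicate 2, 5 of them enriched in each. Pseudogene copies can take reads of their parent genes, and how the authors treated such reads is not given in the sources used here.

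Several leading regions lay downstream of a gene and on its strand, from 33 to 9893 nt past its annotated end. At chr8:27275673-27276137, with 3 clusters in replicate 1 and 4 in replicate 2, the highest folds were 5.29 and 4.98, and the nearest midpoint was 77 nt past Eif4ebp1, which encodes a repressor of cap-dependent translation. At chr1:21001016-21001382, with 4 and 2 clusters, they were 4.84 and 4.62, 33 nt past Tram2, a gene for a translocon-associated protein. The region chr13:62450559-62450735, 2367 nt past the zinc finger gene Zfp935, reached 5.18 and 4.83. At chr8:3140827-3141114, 9893 nt past the insulin receptor gene Insr, the folds were 4.52 and 4.66. The region chr7:43527077-43527404, 71 nt past Cd33, a sialic acid-binding receptor of myeloid cells, held 3 clusters in each replicate and reached 4.21 and 4.94. Ntrk3, a neurotrophin receptor gene, had chr7:78178636-78178901 at 1166 nt, with 3 and 2 clusters and folds of 4.94 and 4.10. Of these 6, replicate 2 was the higher at Insr and Cd33, and replicate 1 at the others.

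The other leading regions had varied surroundings. Past Tlr4, the receptor for bacterial lipopolysaccharide, chr4:66897880-66898497 lay 51358 nt downstream on the same strand with 4 clusters in each replicate and folds of 5.21 and 4.71. A neighbour at chr4:66896520-66896693 reached 4.75 and 4.66, and the next gene span to its right, Gm12911, lay 1416048 nt away. The region with most clusters, chr13:108484306-108485103 with 6 and 3, reached 5.13 and 4.82. It lay 35469 nt past Gm32450 on the same strand and 11815 nt from Gm27572 on the opposite strand. Farther to its right was Pde4d, a cAMP phosphodiesterase gene on the same strand, so the region is also upstream of Pde4d. At chr7:112675667-112675933 the folds were 5.68 and 4.82, 886 nt from the lncRNA gene Gm40451 on its upstream side and 3485 nt from Tead1, a transcription factor gene on the opposite strand. Between Dgat2 and Mogat2, acyltransferase genes of triglyceride synthesis, chr7:99203168-99203694 held 3 clusters in each replicate and reached 5.29 and 4.73. The region chr1:194984492-194984661 reached 4.81 and 4.62. Another 2 of the 15 leading regions lay on chromosome 18, with folds of 6.09 and 4.88 at one and 4.71 and 4.65 at the other.

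**Figure D2:**
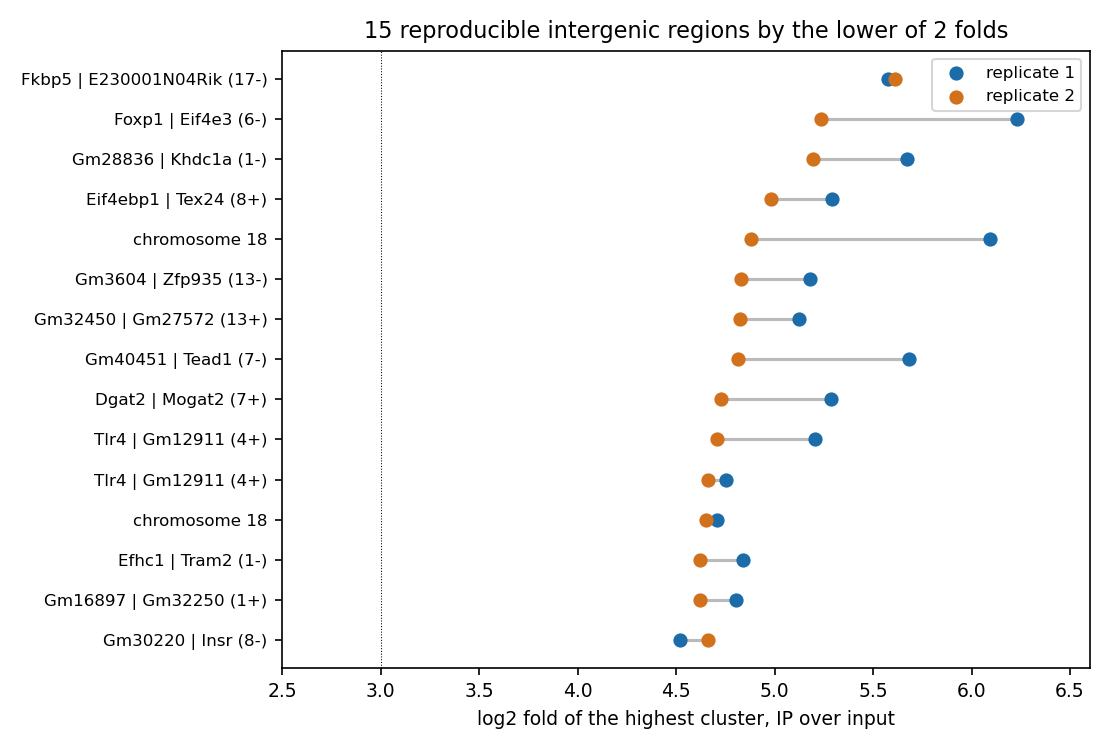
Highest log2 fold in replicate 1 (blue) and replicate 2 (orange) of the 15 reproducible intergenic regions with the highest lower fold. Regions are named by the gene spans to the left and right with chromosome and strand, but those on chromosome 18 by the chromosome alone. The dotted line is the fold of 3. The lowest value is 4.52, and the replicates are nearly equal at the top region (5.58 and 5.61).

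Another 3 regions were among the 10 with most clusters. At chr19:56742634-56743121, with 3 clusters in each replicate, they were 5.33 and 4.43, on the strand opposite to Gm32718, whose span began 4 nt away. The region chr8:121149068-121149630, between Foxl1 and Gm33633, reached 4.74 and 4.14, and chr11:65358299-65358722, 69738 nt from the nearest gene span, Gm30586, reached 4.45 and 3.76. Over all 107 regions replicate 1 was the higher in 67 and replicate 2 in 40, with a median difference of 0.22 and a largest of 1.87.

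Side and strand relative to the nearest gene were known for most regions. Of the 107, 47 were downstream of the nearest gene and on its strand, 22 upstream on its strand, 20 upstream on the opposite strand and 7 downstream on the opposite strand, and for 11 the gene's strand was unknown. Within 1000 nt of the gene there were 14 regions downstream in sense and 0 downstream in antisense. By contrast, 44 regions were over 10000 nt from any gene and 13 over 50000 nt.

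The same excess on the downstream sense side held for the intergenic clusters as a whole. Where the gene's strand was known, 48.8% of the clusters in replicate 1 (2690) and 50.2% in replicate 2 (2783) were downstream and sense. Counts were summed over all genes and divided by the width of the distance bin, so they are not densities per kb of genome. In the first 500 nt past a gene's end there were 618 and 620 clusters per kb of bin in sense. In antisense there were 90.0 and 82.0, over the same nucleotides. Between 5000 and 10000 nt the sense value was 73.4 and 77.8 per kb of bin and the antisense value 16.8 and 18.6. How many genes had intergenic sequence in each bin was not counted, and only called clusters are covered. Sense clusters outnumbered antisense ones in every bin up to 10000 nt in both replicates. The enriched share was 5.92% and 4.67% of all intergenic clusters within 1000 nt of a gene and 4.40% and 2.90% over 50000 nt away, with overlapping intervals (4.54 to 7.68 and 3.21 to 6.01 in replicate 1).

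**Figure D3:**
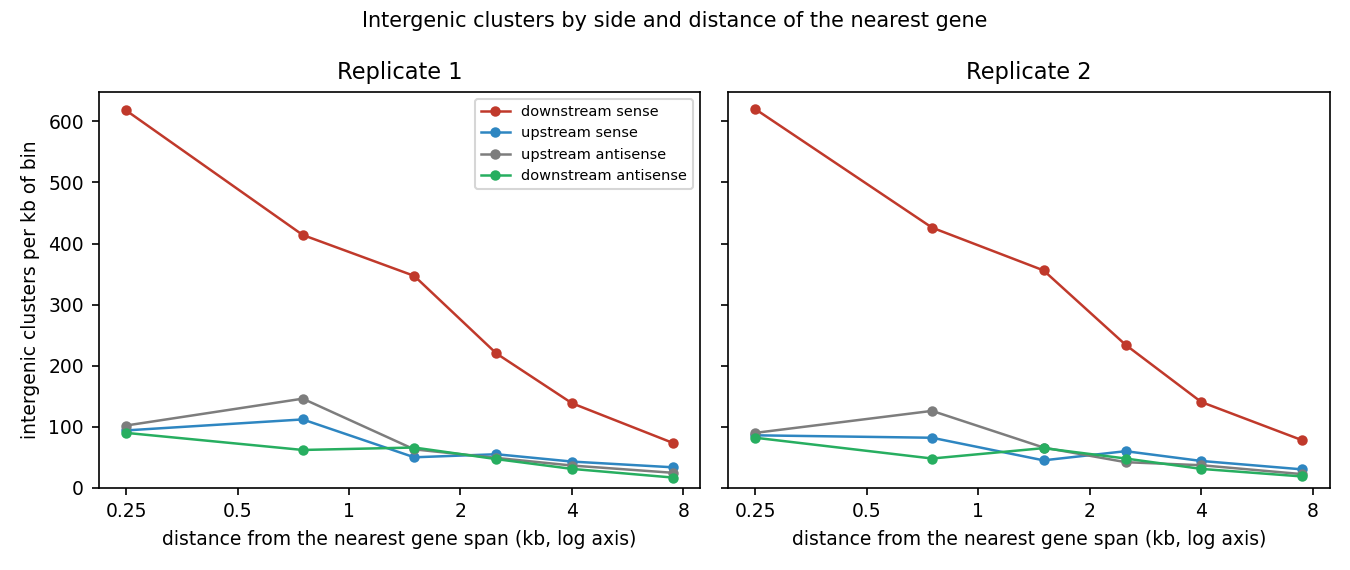
Intergenic clusters per kb of bin, summed over all genes (vertical axis), against distance of the cluster midpoint from the nearest gene span (horizontal log axis, up to 10 kb). Lines show side and strand, with 1 panel per replicate. The downstream sense line starts at 618 and 620 per kb of bin and stays above the other 3 lines, which reach 146 at most.

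Intergenic clusters of 1 strand were often strung along the genome. Joined at up to 5000 nt, a distance chosen after seeing the data, they formed 2466 stretches, of which 880 were a single cluster. The 83 stretches with at least 10 clusters of each replicate held 32.8% of the replicate 1 clusters and 34.7% of the replicate 2 clusters. In these the enriched share was 7.03% and 4.77%, against 3.33% and 2.31% in the other stretches. Over all clusters of chromosomes 1 to 19 it was 6.31% and 4.71%. The other stretches thus lay below that background in both replicates, and the 83 lay near it. Enrichment was uneven among them: 35 of the 83 had no enriched cluster in either replicate, and 33 held a reproducible region. The 107 regions fell in 78 stretches, 58 of them with a single region, and 37 regions had another within 10000 nt on the same strand.

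The longest stretch, chr16:77559753-77701231 on the plus strand, began 1355 nt past the annotated end of Mir99ahg, the host lncRNA of a miRNA cluster. It held 172 clusters in replicate 1 and 213 in replicate 2, 13 of them enriched in each and 9 reproducible. The median log2 folds were 0.92 and 0.76, above the intergenic median of 0.36 in both. Folds varied along its 141479 nt. From 40 to 60 kb into the stretch the median was 1.55 and 1.21, and 4 and 6 clusters were enriched; from 80 to 100 kb 5 and 4 were enriched, and the maximum was 4.99 and 4.30. From 100 to 120 kb, in contrast, 1 of 22 and 0 of 35 were enriched.

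The 3 miRNA hairpins of that stretch, whose mature sequences are printed above, had different surroundings. Mir125b-2, at chr16:77646273-77646343, was the one intergenic hairpin with enriched clusters within 1000 nt in both replicates. In replicate 1, chr16:77645151-77645343 had a log2 fold of 3.08 and chr16:77645344-77645421 of 3.23, both to the 5′ side of the hairpin. In replicate 2, chr16:77645163-77645347 had 3.29 and chr16:77645348-77645408 had 3.10. On the 3′ side the folds were negative in both, −1.64 and −0.96 in replicate 1 and −0.97 in replicate 2. Near Mir99a, in contrast, the replicate 1 clusters had −1.64 and −2.84, and the 6 replicate 2 clusters within 1000 nt ran from −1.19 to 1.49. On Mirlet7c-1 itself replicate 2 had 3 clusters, with −0.70, −0.38 and 0.36, and the last covered 17 of the 22 nt of let-7c-5p, while replicate 1 had none there.

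Over all 216 miRNA hairpin genes outside gene spans, 25 had an intergenic cluster of their own strand within 1000 nt in both replicates. The median fold around those 25 hairpins spanned −2.84 to 2.98 in replicate 1 and −2.81 to 2.61 in replicate 2, with Mir125b-2 the highest in each. Clusters overlapped 3 hairpins in each replicate, and none of these was enriched. Mir27a carried a cluster of 17 nt in replicate 1 and of 22 nt in replicate 2 on its 3′ arm, covering 17 and 21 of the 21 nt of miR-27a-3p at folds of 0.04 and 0.84. On Mir451a, the erythroid miRNA that Ago2 matures without Dicer, both replicates had a cluster at chr11:78073185-78073189, with −0.38 and 0.62. Mir379, in the imprinted miRNA cluster of chromosome 12, had an enriched cluster within 1000 nt in replicate 2 alone, at 3.71. Its nearest replicate 1 cluster lay just outside that limit, 1018 nt away, with a log2 fold of 3.43. The other overlapped hairpin was Mir758 in replicate 1, at 0.62.

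On chromosome 13 a pair of long stretches on the plus strand lay between Gm32450 and Pde4d, both genes on that strand. The one at chr13:108518806-108604493, 49706 nt before Pde4d, held 116 and 121 clusters with medians of 0.36 and 0.20, and 7 and 4 enriched. The other, chr13:108450109-108503190, held 90 and 87 with medians of 0.30 and 0.43, and 8 and 6 enriched. It began 1215 nt past the annotated end of Gm32450 and lay 151002 nt before Pde4d. Gm32450 was the nearest span of 38 and 41 clusters, all downstream in sense. The medians of both stretches were close to that of all intergenic clusters. Their enriched clusters stood partly in groups and partly alone, as the plot of the longest stretches shows. Gm27572, a lncRNA gene on the minus strand whose span lies within the second of these stretches, was the nearest span of 140 and 144 clusters.

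Other long stretches had many clusters and little enrichment. The minus strand stretch chr3:85798683-85869207, past Glt28d2, a glycosyltransferase domain gene, held 85 clusters in each replicate, with 1 and 2 enriched and 0 reproducible. At chr15:85646341-85703733, upstream of Lncppara, 63 and 57 clusters had negative medians, −0.55 and −0.64, and none was enriched. At chr7:92982293-93045212, 53 and 58 clusters had medians of 0.04 and −0.06, and again none was enriched.

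**Figure D4:**
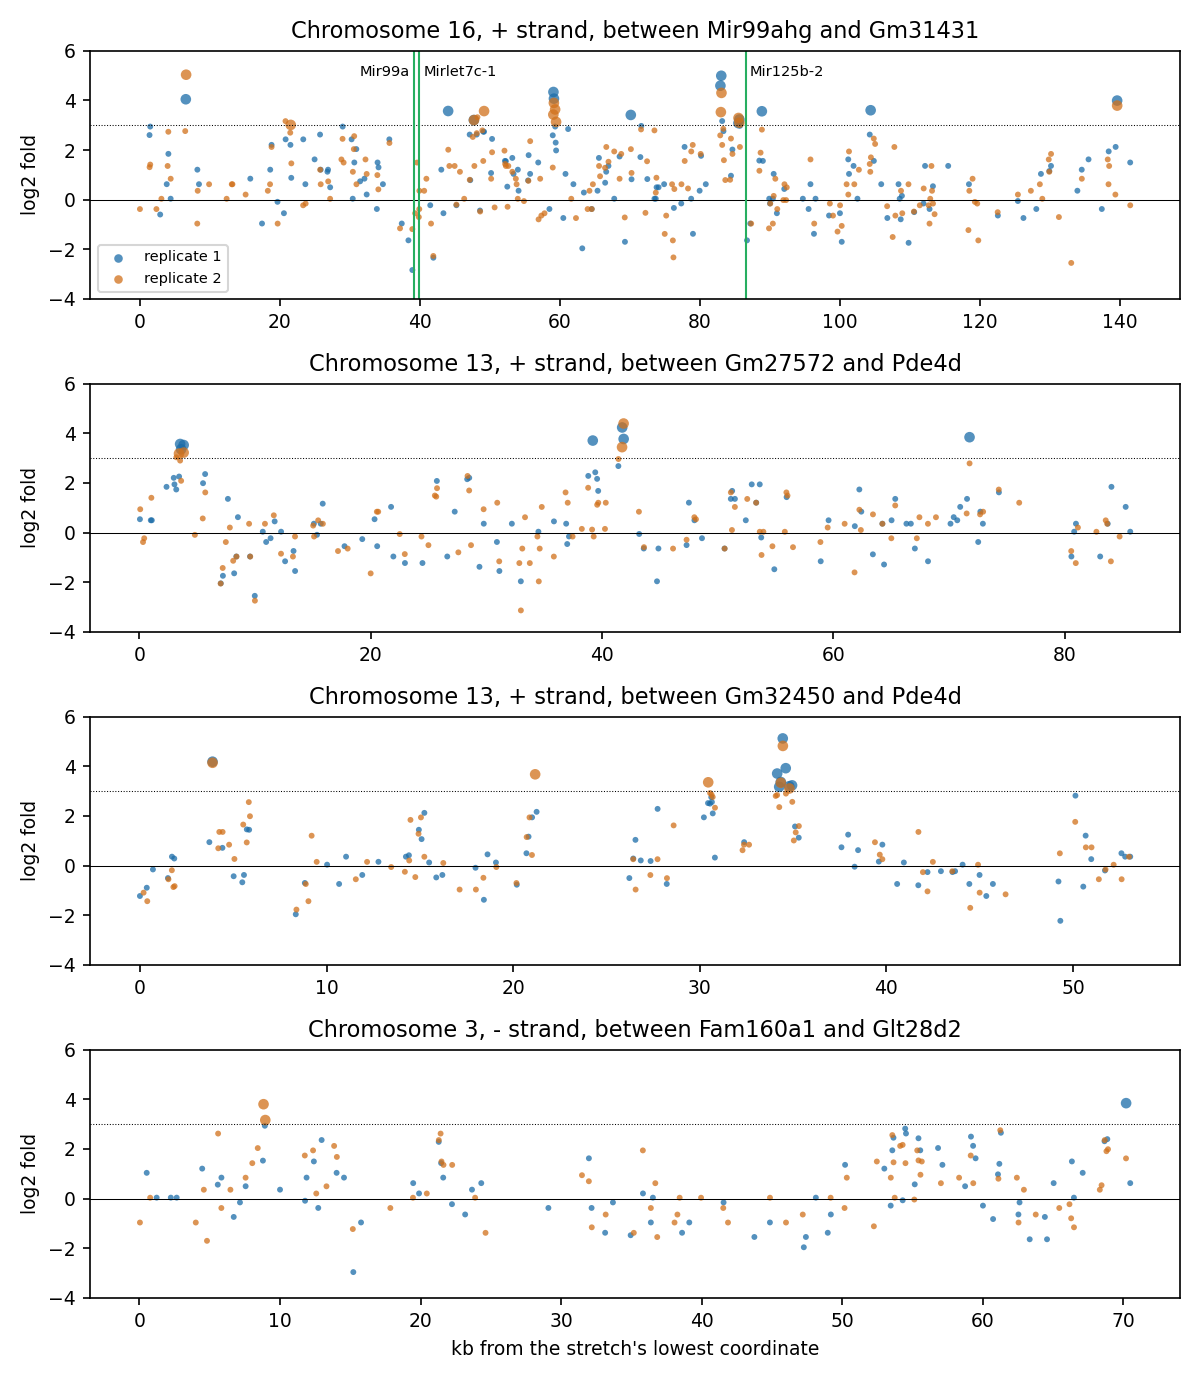
Log2 fold of each cluster along the 4 stretches with most intergenic clusters, in kb from the lowest coordinate, with replicate 1 blue and replicate 2 orange, large points enriched, and green lines at miRNA hairpins in the top panel. The dotted line is the fold of 3; in the top panel the 4 enriched points within 1000 nt of Mir125b-2 lie just to its left, the 5′ side.

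Some stretches held many enriched clusters for their number, and the 5 given next were chosen for that after their values were seen. At chr1:194979731-194988097 on the plus strand, 9 of 18 clusters in replicate 1 and 5 of 20 in replicate 2 were enriched, with medians of 2.71 and 2.33. A second stretch, chr1:195000292-195015928, had 4 of 14 and 4 of 15, with medians of 2.39 and 2.94, and ended 1477 nt before A330023F24Rik, the lncRNA that hosts miR-29b and miR-29c. Past Cd47, the widely expressed receptor that signals against phagocytosis, chr16:49912494-49914075 had 6 of 10 and 4 of 11 enriched, with medians of 3.22 and 2.88. Past Tlr4, chr4:66893384-66900039 had 5 of 9 and 5 of 11, with medians of 3.38 and 2.99. The stretch chr5:53500901-53553668, between Smim20 and Rbpj, the Notch pathway transcription factor gene, held 52 and 74 clusters with medians of 2.05 and 1.62, and 9 and 4 enriched. In all 5 stretches both medians were above the intergenic median by more than 1 log2 unit. The same folds chose these stretches, so this is not a separate result.

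The genes nearest to most intergenic clusters in both replicates were Mir99ahg with 182 and 221, Gm27572 with 140 and 144, Gm40304 with 69 and 94, Pde4d with 58 and 65, and Glt28d2 with 54 and 56. Gm40304 is a lncRNA gene whose span lies within the stretch between Smim20 and Rbpj, and its strand was unknown. All of the Mir99ahg clusters were downstream in sense, and none of those nearest to Gm27572 or Pde4d was.

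For 126 genes with at least 3 downstream sense clusters within 10000 nt in both replicates, the level past the gene could be set beside the level within it. Over these genes the median difference, downstream minus within, was 0.01 in replicate 1 and 0.04 in replicate 2, and Spearman's rho was 0.377 and 0.413 across genes, which share libraries. The downstream median was the higher in both replicates for 46 genes and the lower in both for 41. Genes named next were chosen for their downstream level after it was seen. Past Fcgr2b, the inhibitory Fc receptor gene, the downstream medians were 3.96 and 3.72, and within the gene 3.16 and 2.12. Kidins220, which encodes a scaffold of neurotrophin receptors, had 3.56 and 3.01 past its end from 3 and 4 clusters, and 0.15 and 0.03 within. For Ntrk3 the values were 3.04 and 2.43 downstream and 0.36 and 0.03 within. Cd47 had 3.22 and 2.88 downstream and 1.84 and 1.16 within. The opposite order was seen at Gna12, a G protein alpha subunit gene, with −1.95 and −1.93 downstream and 1.43 and 1.30 within.

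Most of the lowest folds lay in other kinds of gene. Gene classes other than protein-coding and lncRNA lay under 1032 intergenic clusters (17.2%) in replicate 1 and 1035 (17.1%) in replicate 2. Log2 folds of −3 or lower, where RNA was in excess in the input, were found in 136 clusters (2.27%) in replicate 1 and 106 (1.76%) in replicate 2. Over all clusters of chromosomes 1 to 19 that share was 0.788% and 0.601%, so the intergenic share lay above the background in both. Of the 136 and 106, 126 and 94 lay in a span of another gene class.

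Several small structured RNAs had low folds. Rpph1, the RNA subunit of RNase P, which trims precursor tRNAs, held 6 and 5 clusters with medians of −4.77 and −4.63. Rmrp, the RNA of RNase MRP, held 4 in each replicate with −4.32 and −4.22. Spans of snRNA genes, which include spliceosomal RNAs, had medians of −3.43 and −3.42 over 24 and 22 clusters, and snoRNA spans −2.82 and −2.63 over 6 in each. All clusters of Rpph1 and Rmrp had folds below −3 in both replicates. Of the 40 overlapping pairs with the lowest folds, 39 lay in another gene class: 20 in pseudogenes, 10 in Rpph1 or Rmrp, 7 in snRNA genes and 2 in snoRNA genes. The lowest 5 pairs were 2 in Rpph1 (−5.41 and −5.33, −5.08 and −5.03), 1 in the snRNA gene LOC115487699 (−5.20 and −5.10), 1 in the snRNA gene Gm25099 (−4.84 and −4.92) and 1 in the transcribed pseudogene 5830417I10Rik (−6.15 and −4.82).

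Not every small RNA was low. The Y RNA genes Rny1 and Rny3, whose RNAs bind the Ro protein, held 4 clusters in each replicate with medians of 0.69 and 0.56 and a range of 0.43 to 0.76. Clusters in tRNA genes had medians of 0.18 and 0.57 over 9 and 8 clusters. The RNA of Rn7sk, which holds P-TEFb inactive, was in contrast low, with 1 cluster in each replicate at −3.17 and −3.03.

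The pseudogenes split by class. Those not marked as transcribed held 411 and 407 clusters with medians of −0.82 and −0.97, and 3 and 1 were enriched. Transcribed pseudogenes held 453 and 443 with medians of 0.36 in both, and 19 and 17 were enriched. That is near the enriched share of all intergenic clusters, 4.54% and 3.16%. Over all clusters of chromosomes 1 to 19 it was 6.31% and 4.71%. Of the 162 reproducible clusters of replicate 1, 14 were in transcribed pseudogenes, and of the 155 of replicate 2, 15. Transcribed pseudogenes held 7.57% and 7.34% of all intergenic clusters. Beside Gm4956, Ppp4r1l-ps held 66 and 56 clusters with 5 and 3 enriched, and C4bp-ps1 9 and 11 with 2 and 4 enriched. 5830417I10Rik held both the fold of −6.15 and clusters as high as 5.22 and 4.17. Cox17, a copper chaperone gene outside these classes, had medians of −3.21 and −3.10 within its span, yet 3.53 and 1.78 in 3 and 4 clusters past its end.

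**Figure D5:**
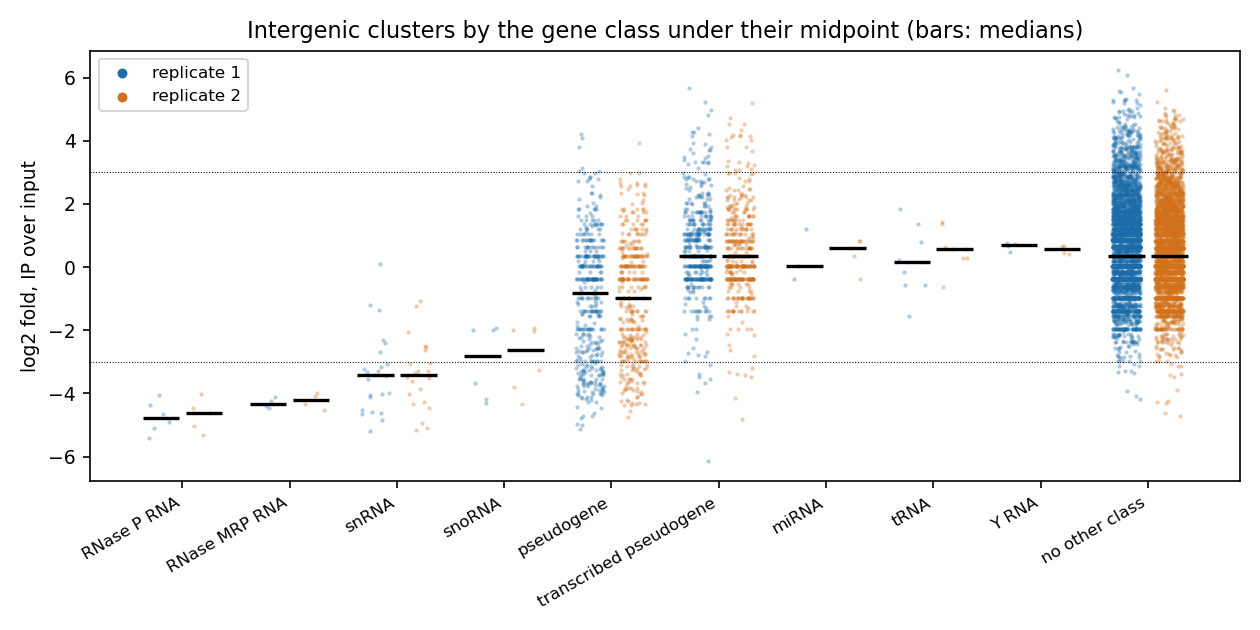
Log2 fold of intergenic clusters (vertical axis) by the gene class under the midpoint, replicate 1 blue and replicate 2 orange, with black bars at the medians and dotted lines at 3 and −3. RNase P RNA (−4.77 and −4.63), RNase MRP RNA (−4.32 and −4.22) and snRNA (−3.43 and −3.42) lie lowest, and transcribed pseudogenes match the clusters with no other class (0.36).

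Counts of intergenic clusters near genes of known role in heart were small, and are set here beside the share among all spans. Of 30 cardiomyocyte and sarcomere genes, 0 had an intergenic cluster within 10000 nt as its nearest span in either replicate, while 29 of the 30 had clusters within the gene in both, 1568 and 1678 in all. Among all 33073 spans, 1278 and 1225 had such an intergenic cluster, so 0 of 30 is close to the background. Heart development transcription factors had 4 and 3 of 30 genes with one, and splicing regulators 4 and 2 of 30, small counts but larger shares than among all spans. For 22 endothelial, pericyte and smooth muscle genes the number was 0, for 29 fibroblast and matrix genes 1 and 0, and for 27 genes of fatty acid and mitochondrial energy metabolism 0 and 1. Whether the authors' caller searched all of the genome is not given in the sources used here, so a gene without a cluster is not shown to lack RNA past its end.

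None of the clusters near members of the 8 lists was enriched. Near genes of any kind 4.79% and 3.27% were, so with so few list clusters a count of 0 is close to the background. Among heart development transcription factors, Ebf1 had 3 clusters in each replicate with medians of 1.21 and 2.20, Foxp1 had 3 and 1 with 1.04 and 1.84, and Foxo1, Irx5 and Nr2f2 had 1 cluster in a single replicate. Lyz2, the macrophage lysozyme gene, had 1 cluster past its end in each replicate at 2.09 and 1.77. Among splicing regulators, Srsf1 had 3 and 1 with 0.36 and −0.38. Ptbp2, the neuronal paralogue of PTBP1, had 1 cluster 9111 and 9051 nt away at −3.70 and −3.90, and the pseudogene Gm4332 lay under it. Pcbp1 had 2 clusters and Hnrnpu 1, in replicate 1, at −1.21 and 0.36. The mRNA decay gene Zfp36 had 1 cluster in each replicate at −0.64 and −1.38, Lox, a collagen crosslinking enzyme gene, 1 in replicate 1 at −0.38, and Acadl, of fatty acid oxidation, 1 in replicate 2 at −1.38.

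By chromosome, intergenic clusters were most numerous on chromosome 13, with 599 and 595, and enriched ones on chromosome 1, with 33 and 29. Chromosome 13 had 30 and 16 enriched. Chromosome 14 had the fewest clusters, 148 and 145, of which 4 and 2 were enriched. On each of the 19 chromosomes both replicates held at least 2 enriched intergenic clusters.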

How the data were processed

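PTBP1 eCLIP clusters of 2 whole-heart replicates were taken as deposited. The authors' values, per the file headers, are a log2 fold of immunoprecipitate over size-matched input and a −log10 p-value for every cluster; −log10 p-values stop at 400. Per the submitters' processing notes, UMI-tools 0.5.1, cutadapt 2.7 and STAR 2.6.0c were used, with the builds mm10 and hg38; the sources used here give neither their roles nor the cluster caller, its annotation or the test behind the p-value. No read counts were available to this work, so the depth behind a fold is unknown.

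Clusters were placed by their midpoint against gene spans of RefSeq GRCm38.p6. Of 33073 autosomal spans, 28223 had a strand, 25748 from RefSeq's promoter table and 2475 from at least 3 clusters with 90% on 1 strand; where both sources gave one, 9514 of 9568 were equal. Distances run from the midpoint to the span's edge. Enriched means that log2 fold and −log10 p each reach 3, reproducible an overlap of at least 1 nt between enriched clusters on the same strand, and regions are reproducible clusters joined within 100 nt. Shares have 95% Wilson intervals. Named by rule were the 15 regions with the highest lower fold, the 10 with most reproducible clusters, the 5 lowest pairs, the 5 genes nearest to most clusters, up to 4 members per neighbour list, and small RNA genes under reproducible clusters. Other genes, hairpins and stretches were chosen after their values were seen. The members and lists were chosen with earlier results of these data known. Alternatives covered the thresholds, the overlap, the gap, the distance to genes, the gene classes, chromosome 1 and leaving out a replicate. Scripts used Python 3.11.15, pandas 2.3.3, numpy 2.4.6, scipy 1.17.1 and matplotlib 3.10.9 and were tested on simulated data.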

Additional observations from a re-analysis of the deposited data

How the results depend on the processing

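No paired analysis was possible because each fold already sets an immunoprecipitate against its own input, so the folds are themselves the paired values, and no test over samples was run on them. Of 51 alternative values, 37 stayed within the spread or 1.5 times of the reported value, 14 moved and 0 reversed. Keeping only clusters over 10000 nt from a gene left 2834 and 2892 clusters, 121 and 88 enriched, 69 reproducible, and a median log2 fold of 0.28 in replicate 2. A log2 fold of at least 4 left 106 and 78 enriched. A log2 fold of at least 1 gave 347 enriched in replicate 2 and 307 reproducible. Clusters overlapped by the other replicate had medians of 0.98 and 0.84, and the length-weighted means were 0.87 and 0.73. Without either replicate the median was 0.36. Leaving out the 5 stretches with most enriched clusters, an alternative chosen after seeing the data, left 226 and 159 enriched and 135 reproducible. Read depth and the mouse behind each replicate are unknown.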
